A study of Arabidopsis thaliana with 36 samples.

Results

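The Aux/IAA and GH3 genes described here are the 33 listed rows, 28 Aux/IAA genes and 5 GH3 genes, among the 36632 genes counted in RNA-seq libraries of Arabidopsis thaliana seedlings. Whole seedlings of 3 genotypes were compared, namely the wild type Col-0, hsfa2 (a T-DNA insertion in HSFA2, which encodes a heat shock transcription factor) and cdk8 (a T-DNA insertion in CDK8, which encodes the kinase of the Mediator kinase module). Both mutants are in the Col-0 background, each is represented by 1 insertion line, and every group grew on MS medium with glucose at 23 °C in long days. Each genotype received no heat stress (NHS), a priming heat stress (HS) on day 5 (P), a triggering HS on day 7 (T) or both (P+T), where an HS was 1 h at 37 °C. Harvest was on day 7 in every group, so the P seedlings had recovered for 2 days. There were 3 biological replicates for each of the 12 groups, or 36 libraries.

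Aux/IAA proteins are short-lived nuclear repressors. They bind auxin response factors (ARFs) and bring TOPLESS-type corepressors to auxin-responsive promoters, and auxin joins them to its TIR1/AFB receptors, which leads to their degradation and frees the ARFs. Many Aux/IAA genes are themselves switched on by auxin, so the family forms a feedback loop. GH3 enzymes of the group listed here join indole-3-acetic acid, the main auxin, to amino acids and thereby lower the free hormone, and their genes are classical early auxin-response genes. IAA20, IAA30, IAA31, IAA32, IAA33 and IAA34 encode family members without the complete degron that the receptors recognise.

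ARFs bind the auxin response element, whose classical core is TGTCTC. In the window from 250 bases before to 50 bases after the RefSeq gene start (TAIR10.1, both strands searched), 15 of the 33 genes (45.5%) held TGTCTC, against 14.2% of 27443 protein-coding genes. The variant TGTCGG was in 6 of the 33 windows (18.2%) and in 5.12% of all windows, the G-box CACGTG in 6 (18.2%) and 7.68%, and the paired heat-element unit GAANNTTC in 3 (9.09%) and 11.6%. TGTCTC and TGTCGG cannot start at the same base, and a match is a run of letters, not a shown binding site. Of the 8 genes that rose at T in Col-0, 7 held TGTCTC, against 2 of the 4 called lower and 4 of the 18 tested genes called in neither direction. Of the 12 genes called lower in cdk8 against Col-0 at T, 6 held it, against 7 of the 18 other tested genes. IAA28, IAA31 and GH3.1 held it only with the 50 bases after the start included. The 250 bases before the start are shown for the 4 genes whose response to the triggering HS differed in cdk8 and for IAA19, which held 3 cores. Capitals mark TGTCTC or TGTCGG on either strand.
GH3.2 (AT4G37390, chr4:17579368-17579617, plus strand): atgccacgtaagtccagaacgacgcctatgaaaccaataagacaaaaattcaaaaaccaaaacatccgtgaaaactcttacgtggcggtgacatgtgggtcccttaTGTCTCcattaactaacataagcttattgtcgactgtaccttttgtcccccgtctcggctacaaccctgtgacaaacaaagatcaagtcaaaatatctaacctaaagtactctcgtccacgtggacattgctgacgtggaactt
GH3.3 (AT2G23170, chr2:9866563-9866812, minus strand): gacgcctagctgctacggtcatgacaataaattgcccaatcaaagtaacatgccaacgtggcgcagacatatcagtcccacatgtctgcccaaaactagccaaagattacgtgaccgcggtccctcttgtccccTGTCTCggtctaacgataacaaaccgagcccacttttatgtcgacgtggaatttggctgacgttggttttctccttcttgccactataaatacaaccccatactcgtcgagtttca
GH3.6 (AT5G54510, chr5:22133689-22133938, minus strand): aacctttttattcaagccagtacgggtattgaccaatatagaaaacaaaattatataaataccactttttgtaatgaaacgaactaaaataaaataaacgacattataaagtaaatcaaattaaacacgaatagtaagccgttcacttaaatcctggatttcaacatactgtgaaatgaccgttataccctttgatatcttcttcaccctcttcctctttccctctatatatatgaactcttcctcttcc
IAA2 (AT3G23030, chr3:8182096-8182345, minus strand): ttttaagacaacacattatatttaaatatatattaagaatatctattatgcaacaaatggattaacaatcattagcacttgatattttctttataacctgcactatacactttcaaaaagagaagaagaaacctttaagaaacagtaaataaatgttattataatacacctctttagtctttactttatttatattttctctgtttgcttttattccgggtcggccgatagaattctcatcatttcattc
IAA19 (AT3G15540, chr3:5263751-5264000, plus strand): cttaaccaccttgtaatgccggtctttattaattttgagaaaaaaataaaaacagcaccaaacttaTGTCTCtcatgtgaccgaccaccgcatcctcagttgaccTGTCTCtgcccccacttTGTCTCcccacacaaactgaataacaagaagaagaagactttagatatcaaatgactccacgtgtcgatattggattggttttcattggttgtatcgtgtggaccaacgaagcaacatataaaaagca
The GH3.2 core began 144 bases and the GH3.3 core 116 bases before the start. The IAA19 cores began 184, 145 and 128 bases before it. GH3.6 and IAA2 held neither word in these 250 bases, and both were called with GH3.2 and GH3.3 in the cdk8 comparison of heat responses.

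Libraries held 29409330 to 31224343 counted read pairs. Levels are given as counts-per-million (CPM) after TMM scaling, which corrects for the share of reads taken by a few strongly changed genes, and changes as log2 fold changes (log2FC) from one edgeR quasi-likelihood fit of the 12 groups. A gene was called between treatments at a Benjamini-Hochberg adjusted p below 0.05 with an absolute log2FC above 1, and between genotypes at an adjusted p below 0.05. Of the 33 genes, 30 passed the filter on low counts, and IAA6, IAA20 and IAA33 did not, with highest counts of 12, 10 and 9. CDK8 had 104 to 222 counts in the cdk8 libraries and 423 to 1558 in the others, and HSFA2 at T had 27288 to 35557 counts in hsfa2 and 41959 to 45316 in cdk8 against 139576 to 148435 in Col-0. The 3 seed-storage genes CRA1, CRU3 and SESA1 together reached 1.04 to 126 CPM in the Col-0 libraries and 0.366 to 60.9 CPM in those of hsfa2, but 6.18 to 6954 CPM in those of cdk8, unevenly between replicates. The 4 photosynthetic markers RBCS1A, CAB2, CAB3 and LHCA1 summed to 32002 to 56673 CPM and the 4 root markers PRP3, COBL9, RHD6 and SHR to 14.7 to 114 CPM, so both marker lists were detected in every library. In bulk seedlings, fewer cells of a type and less RNA per cell cannot be told apart.

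Without HS, the levels per kb of exon in Col-0 were widely spread. IAA16 was highest at 99.2 ± 10.4 CPM per kb (SD, n = 3), followed by IAA2 at 75.6 ± 6.04, and their libraries did not overlap. IAA9 (65.4 ± 4.36) and IAA7 (57.1 ± 8.65) came next and overlapped each other. Of the GH3 genes, GH3.6 stood at 41.2 ± 4.32 CPM per kb and GH3.5 at 25.3 ± 3.77, while GH3.2 (5.98 ± 0.592) and GH3.3 (5.89 ± 0.464) did not differ beyond their spread and GH3.1 was at 0.335 ± 0.0582. The lower end held GH3.1, IAA10 and 8 Aux/IAA genes from IAA30 at 0.331 down to IAA20 at 0.0612 CPM per kb, among them all 6 that lack the complete degron.

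**Figure D1:**
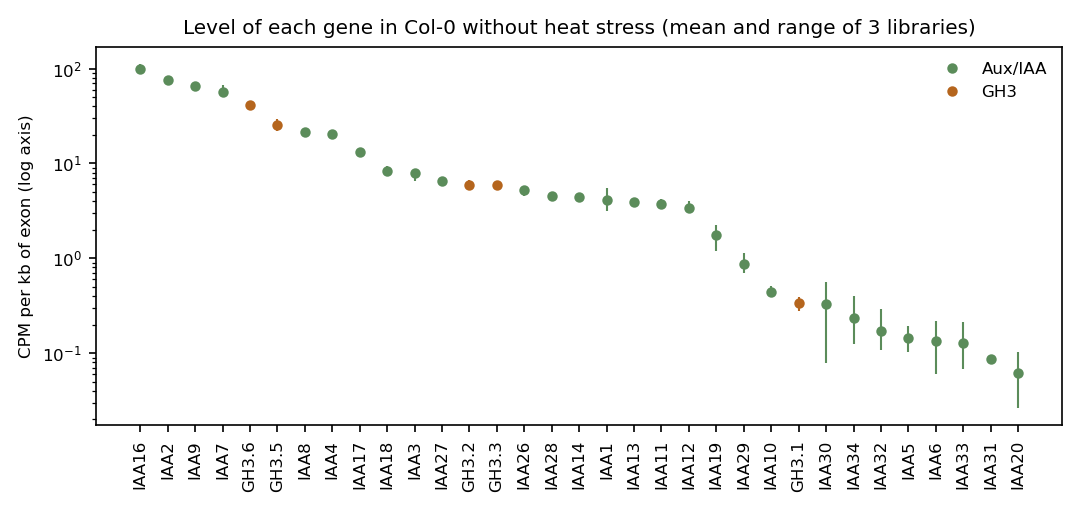
Mean level per kb of exon (CPM, log axis) of the 33 genes in the 3 Col-0 NHS libraries, ordered from highest to lowest, with vertical lines from the lowest to the highest library. IAA16 leads at 99.2 CPM per kb and IAA20 is last at 0.0612, and the ranges of many neighbours overlap.

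The first question was whether these genes still differed 2 days after a priming HS. In Col-0 P/NHS, 0 of the 30 genes were called in either direction by edgeR with Benjamini-Hochberg adjustment, where 0.197% of all 20847 genes tested were called up and 0.0192% down. At an unadjusted p below 0.05 there were 2 (GH3.5 and IAA12), near the 6.9% of all genes, and DESeq2 called 0. GH3.5 stood at 48.6, 53.7 and 40.4 CPM at P against 69.2, 58.1 and 51.6 at NHS. These values overlapped, with a log2FC of -0.33 (SE 0.14, adjusted p = 0.609).

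The triggering HS was then compared with no HS. In Col-0 T/NHS, 8 of the 30 genes rose and 4 fell, beside 8.68% called up and 17.1% called down among all genes tested. The risers were GH3.2, GH3.3, GH3.5 and GH3.6, 4 of the 5 GH3 genes, together with IAA1, IAA5, IAA30 and IAA31. The genes that fell were IAA3, IAA4, IAA32 and GH3.1. The median log2FC of the 30 was 0.21 against -0.05 over all genes.

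Among the GH3 enzymes, GH3.2 stood at 12.5, 14.4 and 11.99 CPM at NHS and at 54.2, 63.4 and 67.7 CPM at T. All T libraries were far above all NHS libraries (log2FC 2.25, SE 0.15, adjusted p = 1.4e-13 by edgeR). GH3.3 went from 12.9, 13.2 and 11.3 CPM to 26.4, 31.3 and 24.8 CPM, a log2FC of 1.14 (SE 0.17). GH3.6, known from a dominant short-hypocotyl mutant, went from 84.9 to 105 CPM at NHS to 225 to 245 CPM at T (log2FC 1.28, SE 0.11). GH3.5 (AT4G27260), whose enzyme also acts on salicylic acid, went from 51.6 to 69.2 CPM to 132 to 151 CPM (log2FC 1.23, SE 0.14). In none of the 4 did the groups overlap. GH3.1 (AT2G14960) moved the other way, from 0.625, 0.738 and 0.885 CPM to 0.296, 0.306 and 0.433 CPM, or 7, 7 and 9 counts (log2FC -1.12, SE 0.40, adjusted p = 0.0169 by edgeR). Its groups did not overlap, and leaving out T replicate 1 or 2 or NHS replicate 3 took its adjusted p above 0.05 (0.0611, 0.0557 and 0.0579).

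Among the Aux/IAA repressors that rose, IAA1 (AT4G14560) was the most abundant, with 3.49, 2.95 and 5.26 CPM at NHS and 10.6, 9.31 and 12.2 CPM at T. The groups did not overlap (log2FC 1.45, SE 0.23, adjusted p = 3.58e-06 by edgeR). IAA5 (AT1G15580) had 4, 6 and 3 counts at NHS and 27, 10 and 12 at T. IAA31 (AT3G17600), one of the degron-lacking members, had 3, 3 and 3 counts at NHS and 13, 7 and 7 at T. Both were higher in every T library, at levels where single counts matter (log2FC 2.64, SE 0.64, and 2.30, SE 0.64). IAA30 (AT3G62100) had 3, 22 and 13 counts at NHS and 12, 33 and 11 at T, and its groups overlapped. Its log2FC of 1.32 lost its call without NHS replicate 1 (0.86, adjusted p = 0.109) or T replicate 2 (0.64, adjusted p = 0.301, edgeR).

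IAA4 (AT5G43700) fell from 26.4, 28.4 and 28.5 CPM at NHS to 8.71, 8.09 and 6.69 CPM at T. No T library came near the NHS libraries (log2FC -1.82, SE 0.15, adjusted p = 9.49e-12 by edgeR). IAA3 (AT1G04240), known as SHY2 for its part in root meristem size, went from 11.3, 11.7 and 8.88 CPM to 6.81, 5.33 and 3.66 CPM. Its groups were separate, and its log2FC of -1.01 (SE 0.24) lay just past the fold threshold, which it missed without NHS replicate 1 (-0.96) or 2 (-0.93), T replicate 3 (-0.81) or cdk8 T replicate 1 (-0.97). IAA32 (AT2G01200) had 21, 8 and 8 counts at NHS and 1, 2 and 2 at T, a log2FC of -2.06 (SE 0.71) that lost its call without NHS replicate 1 (-1.44, adjusted p = 0.111) or T replicate 1 (-1.77, adjusted p = 0.0605, edgeR). IAA17 (AT1G04250), known as AXR3, lay just short of the fold threshold, with 19.0, 15.7 and 17.0 CPM at NHS and 31.8, 31.3 and 40.4 CPM at T. Its log2FC was 0.999, so it was not called, at an adjusted p of 1.19e-05 by edgeR and with groups that did not overlap. DESeq2 gave 1.02 and called it.

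None of the 4 repressors with the highest level per kb at NHS (IAA16, IAA2, IAA9 and IAA7) was called at T. IAA16 (AT3G04730) stood at 225, 192 and 186 CPM at NHS and at 228, 231 and 193 CPM at T, with overlapping groups (log2FC 0.11, SE 0.10). IAA2 (log2FC -0.18) and IAA8 (-0.17) did not pass either. IAA9 (0.18), IAA7 (0.53, known as AXR2), IAA27 (0.61) and IAA29 (0.82) passed the adjusted p but not the fold. IAA28 (AT5G25890), which acts in lateral root formation, went from 6.30, 5.93 and 6.46 CPM to 7.78, 7.91 and 9.19 CPM, a log2FC of 0.41 (SE 0.16, adjusted p = 0.0253 by edgeR) with groups apart and short of the fold. IAA14 (AT4G14550), known as SLR for its part in lateral root initiation, had a log2FC of 0.24 (SE 0.16), and IAA19, which acts in hypocotyl growth and tropisms, 0.55 (SE 0.25, adjusted p = 0.0557 by edgeR). IAA18 passed the adjusted p at -0.76 (SE 0.15). IAA34 (-1.61, SE 0.82), IAA13 (-0.35), IAA26 (-0.29), IAA11 (-0.21), IAA10 (0.13) and IAA12 (0.03) did not pass.

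These counts depend on scaling. Dividing by library size alone moved the median of all genes by -0.77 in Col-0 T/NHS, and then 3 genes were called up (GH3.2 at 1.47, IAA5 at 1.88 and IAA31 at 1.54) and 8 down. Of all 20847 genes tested, 946 were then called up and 8546 down. GH3.3, GH3.5, GH3.6, IAA1 and IAA30 kept a positive log2FC of 0.37 to 0.68 without passing the fold, and 9 uncalled genes turned negative (IAA7, IAA9, IAA10, IAA12, IAA14, IAA16, IAA19, IAA27 and IAA28).

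**Figure D2:**
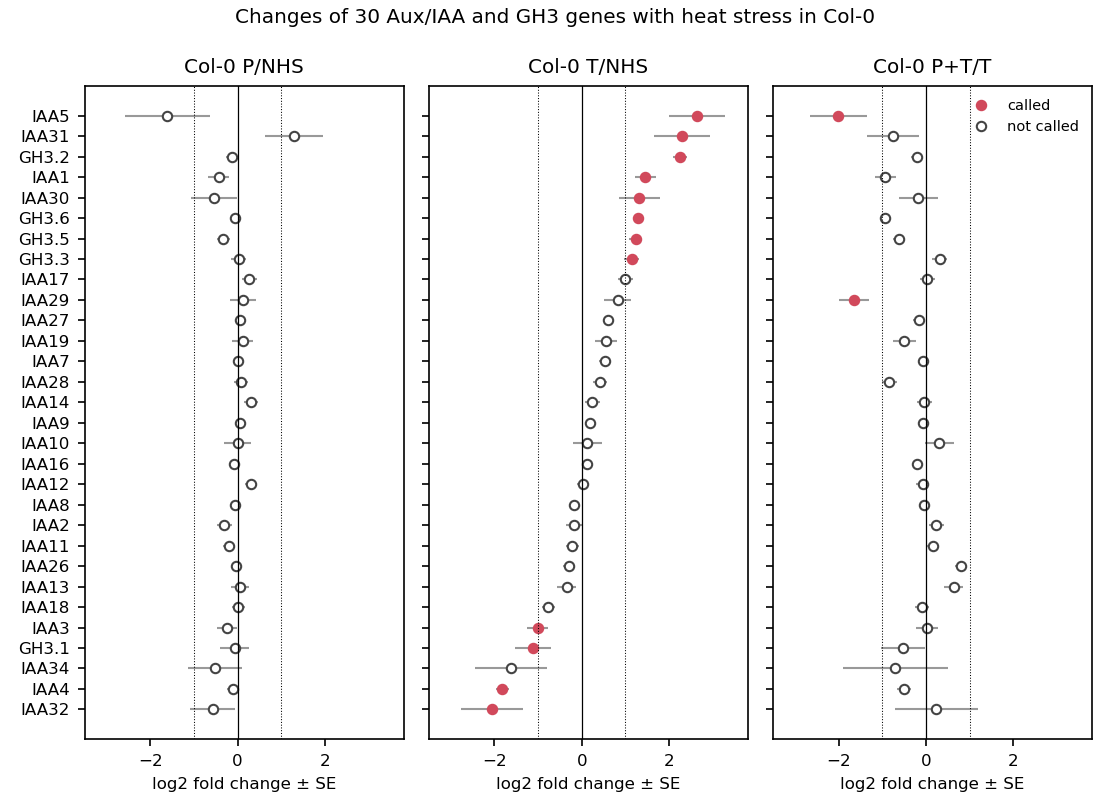
Log2 fold change with its standard error for the 30 tested genes in Col-0 P/NHS, T/NHS and P+T/T, ordered by T/NHS, with filled points for called genes and dotted lines at the fold threshold. No gene is called at P/NHS, 12 are at T/NHS, and IAA5 and IAA29 are at P+T/T.

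The second question was whether a seedling that had been primed responded differently to the triggering HS. In Col-0 P+T/T, 0 of the 30 genes were called up and 2 were called down, IAA5 and IAA29, beside 3.04% and 1.63% of all genes. IAA5 had 27, 10 and 12 counts at T and 4, 3 and 5 at P+T (log2FC -2.005, SE 0.66, adjusted p = 0.0327 by edgeR). The groups did not overlap, but leaving out T replicate 1 or any of the 3 P+T replicates took the adjusted p above 0.05 (0.203, and 0.1, 0.103 and 0.0566). IAA29 (AT4G32280), a target of phytochrome-interacting factors in shade and warmth, stood at 1.61, 1.44 and 2.94 CPM at T and 0.839, 0.515 and 0.530 CPM at P+T. Every P+T library was below every T library (log2FC -1.65, SE 0.34, adjusted p = 0.000728 by edgeR).

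A further 7 of the 30 genes (23.3%) passed the adjusted p without the fold, as did 12% of all genes. GH3.6 stood at 111, 129 and 127 CPM at P+T against 225, 245 and 229 CPM at T. The groups were far apart (log2FC -0.93, SE 0.11, adjusted p = 2.51e-07 by edgeR). GH3.5 (-0.61), IAA1 (-0.93), IAA4 (-0.51) and IAA28 (-0.84) were lower as well, and IAA26 (0.80), whose protein is known to associate with phytochrome, and IAA13 (0.63) higher. IAA28 had 3.78, 5.11 and 5.05 CPM at P+T, below all 3 T libraries, and IAA26 had 15.5, 14.3 and 16.2 CPM at P+T against 9.43, 8.26 and 8.76 CPM at T. GH3.2 (52.4, 52.9 and 55.4 CPM at P+T) and GH3.3 (33.3, 33.6 and 35.7 CPM) did not pass, with log2FC of -0.21 (SE 0.15) and 0.31 (SE 0.17). For GH3.2 the P+T libraries overlapped the lowest T library, and for GH3.3 they all lay above the T libraries.

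Set against the primed baseline, the triggering HS raised 4 genes and lowered 2 in Col-0 P+T/P, beside 9.73% and 17.6% of all genes. GH3.2 (2.17), IAA5 (2.24), IAA30 (1.70) and GH3.3 (1.43) rose and IAA4 (-2.22) and GH3.1 (-1.57) fell. The IAA5 call rested on 4, 3 and 5 counts at P+T and 1, 0 and 3 at P, and was lost without P replicate 1 or 2 or any P+T replicate (adjusted p 0.0502 to 0.142, edgeR). Library size alone, which moved the median of all genes by -0.75, left 1 riser (GH3.2) and 9 genes called lower. Of all 20847 genes tested, it called 1136 up and 8598 down.

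Other auxin pathway genes at T in Col-0 are set against the same 8.68% up and 17.1% down among all genes. Of the 6 TIR1/AFB receptors, 0 were called up and 3 down, all 6 with an adjusted p below 0.05 and a negative log2FC, led by AFB5 (-1.79) and AFB2 (-1.16). Of 15 ARF genes, 0 were called up and 7 down, led by ARF17 (-2.85) and ARF16 (-2.45), with a median of -0.83. Of 11 tested transport genes of 12, 0 were called up and 5 down, led by the influx carrier gene AUX1 (-1.53) and the root efflux carrier gene PIN2 (-1.41). Of 10 tested biosynthesis genes of 14, 1 was called up and 4 down. YUC5 (-3.23) and YUC6 (-2.03) fell, and the riser YUC9 (1.72) is named after its value was seen. TPR1 (-1.01), just past the fold, was the single call among 5 corepressor genes, and 0 were called by DESeq2. Of 4 tested of 6 further GH3 genes, 0 were called by edgeR with TMM or by DESeq2, and 3 had an unadjusted p below 0.05 (65.7% of all genes). Of 12 tested of 13 other auxin-responsive genes, 4 were called up and 0 down, led by SAUR24 (2.56) and LBD29 (2.16). With library size alone, which put 4.54% of all genes up and 41% down, that list had 2 up and 1 down, and YUC9 (0.95) missed the fold. The same scaling called 6 of 6 receptors, 12 of 15 ARF genes, 9 of 11 transport genes, 6 of 10 biosynthesis genes and 2 of 5 corepressor genes down and 0 up. Of the further GH3 genes it called 3 of 4 down, namely GH3.17 (-1.16), JAR1 (-1.02) and DFL2 (-1.19). SAUR19 to SAUR24 are near-identical copies whose reads may be shared, so their single values are uncertain. Root markers fell at T as well (3 of 4 called, summed level 18.6 to 35.0 CPM against 73.6 to 96.2 CPM at NHS), and their part in the falls of PIN2, AUX1 and the Aux/IAA genes was not tested.

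The third question was what the hsfa2 mutation changed. By edgeR with Benjamini-Hochberg adjustment, 0 of the 30 genes were called in hsfa2 against Col-0 at NHS, P, T or P+T, where 0.0192%, 0.307%, 0.153% and 6.51% of all genes were. At an unadjusted p below 0.05 there were 0, 2, 1 and 6 genes, where 1.86%, 7.29%, 5.93% and 18.6% of all genes were, so the 6 of 30 at P+T were near the share over all genes. DESeq2 called 0, 0, 0 and 1. GH3.2 had 75.5, 67.7 and 62.9 CPM in hsfa2 at T and 52.6, 51.8 and 57.2 CPM at P+T. These overlapped the Col-0 values, and the 95% intervals of the log2 difference ran from -0.13 to 0.44 at T and from -0.28 to 0.30 at P+T. Low-count genes had wider intervals, as IAA5 at NHS from -2.86 to 0.65. The 0 calls thus do not show that such genes were unchanged.

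At P+T, IAA1 was the gene nearest to a call. The hsfa2 libraries held 9.24, 8.70 and 9.90 CPM of it and the Col-0 libraries 5.33, 6.57 and 4.86 CPM, so the groups did not overlap (log2FC 0.73, SE 0.24, adjusted p = 0.0604 by edgeR). DESeq2 called it (0.71, adjusted p = 0.0428). The replicate numbers paired these libraries, and with the replicate as a block IAA1 (0.71, adjusted p = 0.0071) and GH3.6 (0.32, adjusted p = 0.0173) were called. The interaction test, which asks whether a treatment effect differed between hsfa2 and Col-0, called 0 genes in T/NHS (0.0048% of all genes) and 0 in P+T/T (1.2%). With an unadjusted p below 0.05 there were 0 and 2, beside 1.98% and 7.51% of all genes, and DESeq2 called 0 in both. For IAA1 in P+T/T the interaction was 0.96 (SE 0.33, adjusted p = 0.248), and 0.95 (adjusted p = 0.0343) with the block.

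The cdk8 mutation came with calls under every treatment. In cdk8 against Col-0 at NHS, 3 genes were higher (IAA14, GH3.5 and GH3.6) and 4 lower (IAA2, IAA16, IAA19 and GH3.2), beside 2.68% and 4.32% of all genes. IAA19 stood at 0.708, 0.524 and 1.31 CPM in cdk8 and 1.90, 1.20 and 2.25 CPM in Col-0. The groups overlapped narrowly (log2FC -1.09, SE 0.27, adjusted p = 0.00906 by edgeR), and the call was lost without cdk8 replicate 2 (-0.83, adjusted p = 0.0807) or Col-0 replicate 3 (-0.88, adjusted p = 0.0713). IAA14 stood at 11.4, 12.2 and 21.3 CPM against 8.39, 7.63 and 9.12 CPM, above every Col-0 library (log2FC 0.83, SE 0.16). GH3.5 stood at 104, 101 and 81.3 CPM against 69.2, 58.1 and 51.6 CPM, also without overlap (log2FC 0.68, SE 0.14). The call of IAA2 (-0.66) was lost without cdk8 replicate 1 or 2 or Col-0 replicate 3, and that of GH3.2 (-0.64) without Col-0 replicate 2. The replicate numbers paired these libraries too, and the block added IAA8 (-0.24, adjusted p = 0.0435), GH3.3 (-0.40, adjusted p = 0.0475) and IAA11 (-0.43, adjusted p = 0.0175, edgeR), all lower.

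At P, 2 genes were higher (GH3.5 and GH3.6) and 5 lower (IAA8, IAA9, IAA16, IAA19 and GH3.3) in cdk8, beside 2.69% and 3.69% of all genes. GH3.5 stood at 119, 112 and 80.9 CPM in cdk8 and 48.6, 53.7 and 40.4 CPM in Col-0 (log2FC 1.13, SE 0.14, adjusted p = 4.58e-06 by edgeR). GH3.6 stood at 150, 156 and 151 CPM against 83.6, 94.6 and 96.3 CPM (log2FC 0.74, SE 0.11). Neither overlapped. IAA19 was at 0.928, 0.938 and 0.767 CPM against 1.90, 1.46 and 2.42 CPM, again with separate groups (log2FC -1.13, SE 0.26), and lost its call without Col-0 replicate 3 (-0.94, adjusted p = 0.0574, edgeR). GH3.3 (-0.69) lost its call without Col-0 replicate 1 or 2 or cdk8 replicate 2 or 3, IAA16 (-0.42) without replicate 2 of either genotype, and IAA8 (-0.32) without Col-0 replicate 1 or cdk8 replicate 3. One cdk8 P library (replicate 1) had 611 counts of HSFA2 where the other 2 had 9 and 21, and 1693 CPM of seed-storage RNA. Without it and 3 other such libraries, 6 of the 7 calls held and IAA8 missed the threshold (-0.33, adjusted p = 0.0501, edgeR).

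In cdk8 against Col-0 at T, 1 gene was higher (IAA14) and 12 were lower (IAA1, IAA2, IAA3, IAA4, IAA5, IAA8, IAA9, IAA16, IAA19, IAA29, GH3.2 and GH3.3), beside 10.2% and 12% of all genes. The median log2FC of the 30 genes was -0.24 against 0.03 over all genes. GH3.2 stood at 11.6, 13.4 and 12.02 CPM in cdk8 against 54.2, 63.4 and 67.7 CPM in Col-0. The cdk8 libraries at T lay close to those of Col-0 without HS and far below those of Col-0 at T (log2FC -2.32, SE 0.16, adjusted p = 1.01e-12 by edgeR). IAA2 stood at 20.8, 23.2 and 20.3 CPM against 104, 97.3 and 70.6 CPM, with no overlap (log2FC -2.08, SE 0.18, adjusted p = 3.38e-10 by edgeR). GH3.3 stood at 8.72, 8.46 and 6.73 CPM against 26.4, 31.3 and 24.8 CPM (log2FC -1.78, SE 0.18). IAA5 had 0, 1 and 2 counts in cdk8 against 27, 10 and 12, which is 5.19% of the Col-0 level with a counting interval of 1.03% to 16.1%.

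The others were IAA29 (0.457, 0.193 and 1.04 CPM against 1.61, 1.44 and 2.94 CPM, log2FC -1.82, SE 0.34), IAA3 (-1.41), IAA19 (-1.35), IAA1 (-0.86), IAA16 (-0.65), IAA4 (-0.51), IAA8 (-0.38) and IAA9 (-0.26). IAA29 did not overlap between genotypes. IAA19 was at 0.914, 0.966 and 1.19 CPM in cdk8 and 2.33, 2.88 and 2.65 CPM in Col-0, and IAA14 at 13.6, 15.6 and 19.1 CPM against 9.10, 9.88 and 10.8 CPM, both without overlap. GH3.5 (log2FC 0.02, SE 0.14) and GH3.6 (-0.30, SE 0.11, adjusted p = 0.0514) did not pass the test at T. With the replicate as a block, GH3.6 (-0.30, adjusted p = 0.0112) and IAA12 (0.33, adjusted p = 0.0362, edgeR) were called. The call of IAA1 was lost without cdk8 T replicate 1 (adjusted p = 0.0584), that of IAA4 without Col-0 T replicate 1 or 2 or cdk8 T replicate 3 (0.0649 to 0.102), and that of IAA9 without Col-0 T replicate 2 or 3 or cdk8 T replicate 1 or 3 (0.0624 to 0.101, edgeR). Library size alone moved the median of all genes by 0.23 here and gave 3 higher and 9 lower. Of all 20847 genes tested, 6532 were then called higher and 1579 lower.

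**Figure D3:**
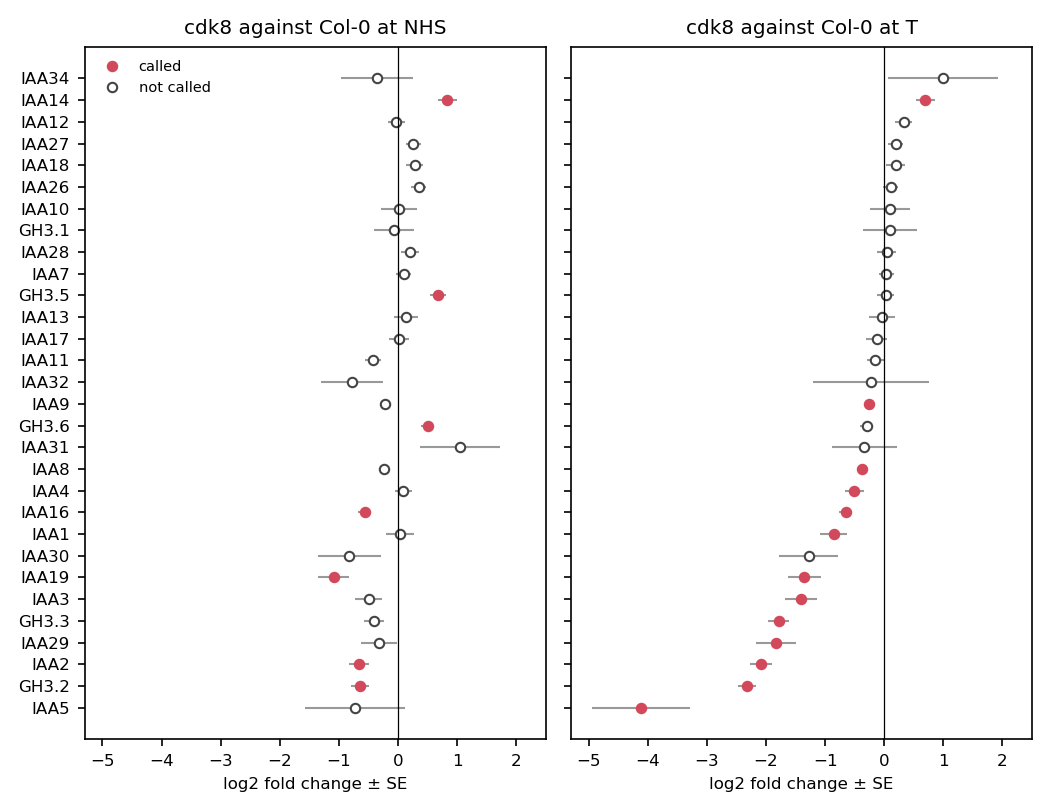
Log2 fold change of cdk8 against Col-0 with its standard error for the 30 tested genes at NHS (left) and at T (right), ordered by the value at T, with filled points for called genes. At T 12 genes lie on the lower side, led by IAA5, GH3.2 and IAA2, and IAA14 on the higher side.

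Whether the response to HS itself differed was asked by the interaction, which shares its Col-0 libraries with the comparisons above. For cdk8 in T/NHS, 4 genes were called (4.3% of all genes). GH3.2 changed by 0.57 (SE 0.16) from NHS to T in cdk8 and by 2.25 in Col-0, an interaction of -1.68 (SE 0.22, adjusted p = 3.5e-06 by edgeR). IAA2 changed by -1.60 (SE 0.18) in cdk8 and by -0.18 in Col-0, an interaction of -1.42 (SE 0.25, adjusted p = 0.000299). GH3.3 changed by -0.24 (SE 0.18) in cdk8 and by 1.14 in Col-0 (interaction -1.38, SE 0.25, adjusted p = 0.000423), and GH3.6 by 0.48 (SE 0.11) and 1.28 (interaction -0.80, SE 0.16, adjusted p = 0.00118, edgeR). GH3.6 and GH3.5 began higher in cdk8 without HS, whereas GH3.2 and IAA2 began lower. For GH3.5 the interaction was -0.65 (SE 0.20, adjusted p = 0.0594), and for IAA29 -1.50 (SE 0.46, adjusted p = 0.0576). With the replicate block, under which the cdk8 NHS and T libraries were not shown to be paired, 7 genes were called.

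At P+T, 2 genes were higher in cdk8 (IAA12, known as BODENLOS for its part in the embryonic root, and IAA14) and 9 lower (IAA2, IAA3, IAA8, IAA9, IAA16, IAA26, IAA30, GH3.2 and GH3.3), beside 6.49% and 11.9% of all genes. GH3.3 stood at 5.82, 6.82 and 5.51 CPM in cdk8 and 33.3, 33.6 and 35.7 CPM in Col-0 (log2FC -2.50, SE 0.19, adjusted p = 1.13e-11 by edgeR). GH3.2 stood at 14.0, 12.3 and 9.33 CPM against 52.4, 52.9 and 55.4 CPM (log2FC -2.17, SE 0.16). IAA2 had 42.9, 30.8 and 35.9 CPM against 101, 115 and 104 CPM (log2FC -1.54, SE 0.18). For all 3 genes every cdk8 library was below every Col-0 library. IAA30 had 7, 6 and 3 counts against 14, 22 and 14 (log2FC -1.79, SE 0.55, adjusted p = 0.0196 by edgeR), and lost its call without Col-0 P+T replicate 2 or cdk8 P+T replicate 3. IAA5 had 0, 0 and 1 counts in cdk8 against 4, 3 and 5 in Col-0. IAA6, which was not tested, had 0, 0 and 0 counts against 1, 2 and 2. A count of 0 allows up to 3 per library. The 11 calls became 7 without Col-0 P+T replicate 2 or cdk8 P+T replicate 3, when IAA3, IAA9, IAA12 and IAA30 missed the threshold, and IAA3 and IAA12 each missed it without further libraries. Library size alone, which moved the median of all genes by 0.17, gave 5 higher and 6 lower. Of all 20847 genes tested, it called 3942 higher and 1768 lower.

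For priming in cdk8, the P+T/T interaction called 1 gene, IAA26 (AT3G16500, 0.739% of all genes). It stood at 9.60, 8.19 and 10.7 CPM at T and 10.2, 10.5 and 7.66 CPM at P+T in cdk8, where Col-0 went from 9.43, 8.26 and 8.76 CPM to 15.5, 14.3 and 16.2 CPM. The cdk8 groups overlapped and the Col-0 groups did not (interaction -0.80, SE 0.19, adjusted p = 0.0283 by edgeR). The call was lost on leaving out any one of 7 libraries (Col-0 T replicate 2 or 3, Col-0 P+T replicate 1 or 3, cdk8 T replicate 1 or 3, or cdk8 P+T replicate 3), with an adjusted p of 0.0609 to 0.123.

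**Figure D4:**
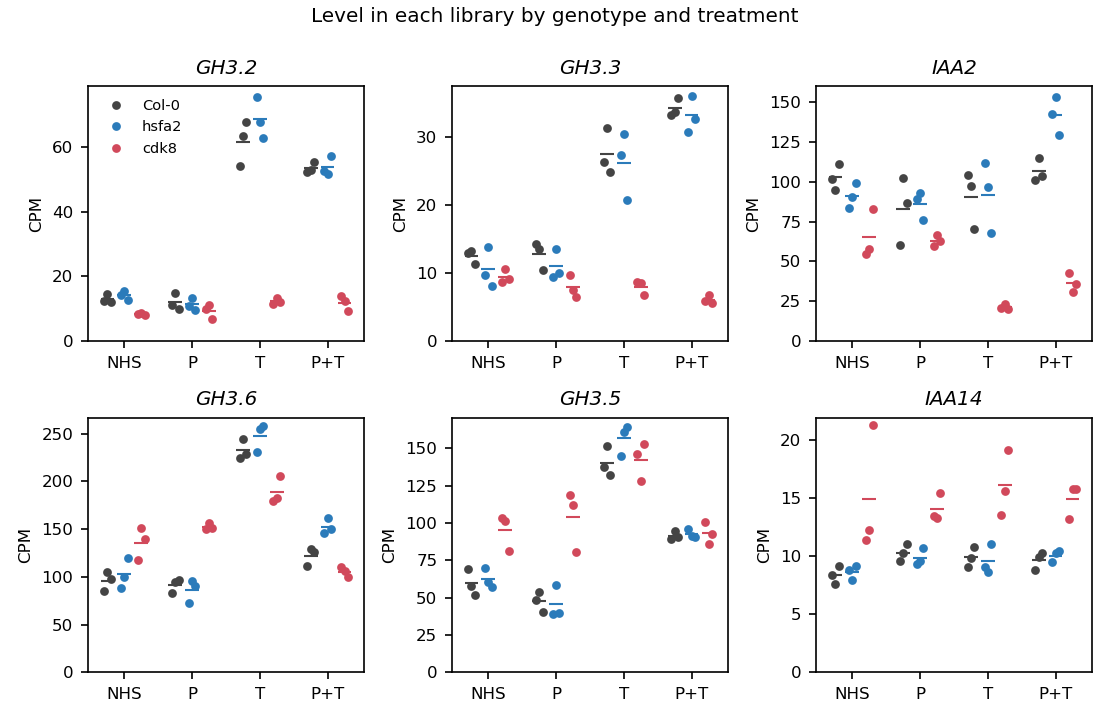
CPM of GH3.2, GH3.3, IAA2, GH3.6, GH3.5 and IAA14 in each of the 36 libraries (points) with group means (lines), by treatment and genotype, on linear axes from 0. GH3.2 reaches 54.2 to 67.7 CPM at T in Col-0 and 11.6 to 13.4 in cdk8, and IAA14 is above Col-0 in cdk8 under every treatment.

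Of the 12 tested other auxin-responsive genes, 0 were called higher and 9 lower in cdk8 at T (10.2% and 12% of all genes), with a median log2FC of -1.86. The lower genes include all of SAUR19 to SAUR24 (-1.61 to -3.46), near-identical copies whose reads may be shared. The count and the median are thus not those of independent genes. LBD29, a lateral organ boundaries gene downstream of ARFs, had -2.11 (SE 0.40), and HAT2, an auxin-induced homeobox gene, -1.15 (SE 0.16), named here with YUC9 after their values were seen. Of the 6 receptor genes 2 were higher and 1 lower, and 4 higher and 0 lower with library size alone. Of the 10 tested biosynthesis genes 2 were higher, YUC2 (1.52) and YUC3 (1.25), and 1 lower, YUC9, which had risen at T in Col-0 and was at -4.69 (SE 0.52, adjusted p = 3.91e-08 by edgeR). Of the 4 tested further GH3 genes 1 was higher, GH3.17 (0.64, adjusted p = 5.51e-06 by edgeR), and 0 lower. Of the 11 tested transport genes 3 were higher and 2 lower, of the 5 corepressor genes 1 and 0, and of the 15 ARF genes 0 and 0, with 4 of the ARF genes at an unadjusted p below 0.05 (33.9% of all genes). With library size alone, which put 31.3% of all genes higher and 7.57% lower, 9 ARF, 6 transport, 4 biosynthesis, 4 corepressor and 3 further GH3 genes were higher, and YUC9 was the single gene of these lists lower.

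HSFA2 RNA was also lower in cdk8 at T, at 1593, 1622 and 1793 CPM against 6157, 6100 and 7143 CPM in Col-0 (log2FC -1.95, SE 0.64, adjusted p = 0.0274 by edgeR). The summed level of the 3 heat markers HSP101, HSP21 and HSP70 was 33748 to 39737 CPM in cdk8 and 45495 to 54099 CPM in Col-0 at T, without overlap, although 0 of the 3 genes were called singly (0 at an unadjusted p below 0.05). In hsfa2 against Col-0 at T, HSFA2 had a log2FC of -2.23 (SE 0.65, adjusted p = 0.377 by edgeR) and was not called. The part of the lower HSFA2 and heat-marker levels of cdk8 in its auxin gene differences was not tested.

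Seed-storage RNA moved with the cdk8 genotype. At NHS the summed level was 250 to 413 CPM in cdk8 and 1.04 to 66.4 CPM in Col-0, without overlap, with log2FC of 3.32 to 4.64 for the 3 genes, which had an unadjusted p below 0.05 and were not called. In the 7 calls at NHS and in the T/NHS interactions, this shift and the genotype cannot be told apart. All 3 marker genes were called higher in cdk8 at T and at P+T, with summed levels of 572 to 6954 CPM at T against 3.18 to 126 CPM in Col-0, and of 61.9 to 3409 CPM at P+T against 8.05 to 66.4 CPM. At T the genotypes did not overlap, so in the 13 calls at T this shift and the genotype cannot be told apart either. In cdk8 P+T replicates 1, 2 and 3 the summed level was 61.9, 903 and 3409 CPM, within the Col-0 range in replicate 1 alone. In the same order GH3.2 was at 14.0, 12.3 and 9.33 CPM. GH3.3 was at 5.82, 6.82 and 5.51 CPM and IAA2 at 42.9, 30.8 and 35.9 CPM. No test was made on these values. In an alternative chosen after seeing the data, the 4 cdk8 libraries above 1000 CPM were left out (P replicate 1, T replicates 2 and 3, P+T replicate 3). This left 1 cdk8 library at T, whose spread came from the other groups, so calls at T are not given. That library held 572 CPM of seed-storage RNA and cdk8 P+T replicate 2 held 903 CPM, both above every Col-0 library. The removal thus did not bring cdk8 to the Col-0 level. At P+T 7 of 11 calls held. The T/NHS interactions were -1.77 for GH3.2, -1.46 for IAA2, -1.25 for GH3.3 and -0.88 for GH3.6, and that of IAA26 in P+T/T was -0.69. All of these rest on the 1 cdk8 library left at T. The part of seed-storage RNA in the cdk8 differences was not tested.

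**Figure D5:**
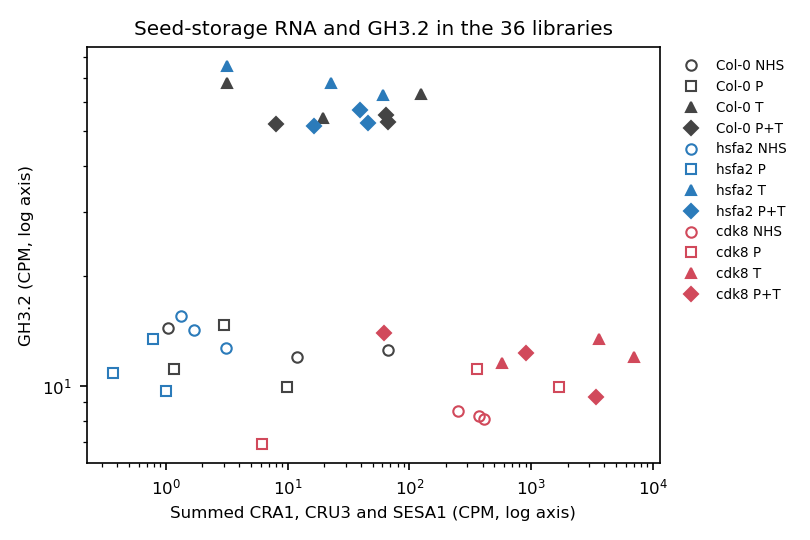
GH3.2 (CPM, log axis) against the summed seed-storage genes CRA1, CRU3 and SESA1 (CPM, log axis) in the 36 libraries, by genotype (colour) and treatment (symbol, filled at T and P+T). The 6 filled cdk8 points lie between 9.33 and 14.0 CPM of GH3.2 over 61.9 to 6954 CPM of seed-storage RNA, and those of Col-0 and hsfa2 lie at 51.8 CPM or above.

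The Aux/IAA genes include 3 pairs that lie close together on opposite strands (TAIR10.1), and the values of the 2 partners are given side by side. IAA1 (chr4:8360996-8362033, plus strand) and IAA14 (chr4:8347822-8350263, minus strand) had log2FC of 1.45 and 0.24 in Col-0 T/NHS and of -0.86 and 0.70 in cdk8 against Col-0 at T. IAA3 (chr1:1128149-1129689, minus strand) and IAA17 (chr1:1136078-1138663, plus strand) had -1.01 and 1.00, and -1.41 and -0.13. IAA2 (chr3:8180646-8182095, minus strand) and IAA7 (chr3:8194606-8197161, plus strand) had -0.18 and 0.53, and -2.08 and 0.03. IAA3 overlaps a gene on the opposite strand, as do 7 other members, and IAA34 overlaps one on its own strand, so reads there may be shared.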

How the data were processed

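RNA-seq libraries were made from 36 samples of whole Arabidopsis seedlings in 12 groups of 3 biological replicates. The members and gene lists were chosen with earlier results of these data known. The authors mapped paired-end reads to TAIR10 with STAR 2.7.10a (version from the submitters' processing notes) and deposited raw counts of read pairs per gene. The annotation and the strand setting of the counted column are not given in the sources used here, so reads in overlapping genes are uncertain. Rows that name no gene (unmapped 1.14 to 2.26%, multimapping 1.31 to 2.38%, no feature 0.506 to 1.56%, ambiguous 5.62 to 7.1% of pairs) were left out. At 29409330 to 31224343 counted pairs per library, 3 counts are the limit that a count of 0 allows, which covers counting error only, as do the ratio intervals.

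Counts were fitted with edgeR 4.0.16 (R 4.3.3; filterByExpr with a minimum count of 10 and total of 15, TMM, glmQLFit, glmQLFTest, Benjamini-Hochberg over 20847 genes) in 1 model of the 12 groups. Treatments were called at an adjusted p below 0.05 and an absolute log2FC above 1, genotypes and interactions at an adjusted p below 0.05. Alternatives were DESeq2 1.42.0, its size factors in edgeR, library size alone, no filter, a mean CPM of at least 1, each genotype alone, the replicate number as a block, leaving out each library, and the removal of seed-storage-rich libraries. The scripts were tested on simulated data. No pair of libraries agreed within sampling noise. Every member is named, and per-library values are given for the members with the largest called changes (4 in each direction in Col-0 T/NHS and P+T/T, 3 per mutant comparison) and some added after their values were seen. Deviations from group means over 13382 genes correlated above 0.1 in every same-numbered pair for hsfa2 against Col-0 under all treatments (0.144 to 0.762), for the NHS, T and P+T comparisons of cdk8 with Col-0 (0.138 to 0.397) and for Col-0 P+T/P and P+T/T (0.153 to 0.593), and not for cdk8 against Col-0 at P or for Col-0 P/NHS and T/NHS. The pairing thus comes from the data and not from a stated batch. Gene positions and the upstream sequences are from RefSeq TAIR10.1, in which all 33 members were found by locus identifier. Protein motifs were not analysed here.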

Additional observations from a re-analysis of the deposited data

Results flagged for a closer look

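A treatment effect differed between cdk8 and Col-0 by a test of the difference itself for 5 results, each an interaction in edgeR with Benjamini-Hochberg adjustment. For T/NHS the difference in log2FC was -1.68 (SE 0.22, adjusted p = 3.5e-06) for GH3.2, -1.42 (SE 0.25, adjusted p = 0.000299) for IAA2, -1.38 (SE 0.25, adjusted p = 0.000423) for GH3.3 and -0.80 (SE 0.16, adjusted p = 0.00118) for GH3.6. For P+T/T, which compares primed with unprimed seedlings, it was -0.80 (SE 0.19, adjusted p = 0.0283) for IAA26. That call was lost on leaving out any one of several single libraries. The 4 cdk8 libraries above 1000 CPM of seed-storage RNA were also left out, a choice made after seeing the data that left 1 cdk8 library at T. GH3.2 was then at -1.77, IAA2 at -1.46, GH3.3 at -1.25, GH3.6 at -0.88 and IAA26 at -0.69. The cdk8 library left at T held 572 CPM of seed-storage RNA, above every Col-0 library. The removal thus could not tell seed-storage RNA and genotype apart. The part of seed-storage RNA in these differences was not tested.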

How the results depend on the processing

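Of 63 called member values, the replicate block kept 63 past their threshold, DESeq2 and its size factors in edgeR 62 each, no filter 61 and library size alone 47. A mean CPM of at least 1 kept all 52 it could test, and each genotype fitted alone kept 17 of 18. On leaving out each library in turn, 42 kept their call throughout and 21 lost it without at least 1 library. No direction was reversed among them. In Col-0 T/NHS, the 8 risers became 3 with library size alone and 5 with a mean CPM of at least 1, and the 4 genes that fell became 8 and 2, and 2 with each genotype alone. In Col-0 P+T/P, the 4 risers became 1 and 2 and the 2 genes that fell became 9 and 1 under the same pair of settings. In Col-0 P+T/T the 2 genes that fell became 1 with a mean CPM of at least 1. These settings test fewer low genes, move the median of all genes or fit fewer libraries. For hsfa2 at P+T, DESeq2 called 1 and the replicate block 2 genes where edgeR called 0. With the block, the interactions called 1 gene (hsfa2, P+T/T) and 7 (cdk8, T/NHS). Without the seed-storage-rich libraries, cdk8 at P+T kept 7 of 11 calls. The cause was not tested.

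Leaving out each library in turn gave 8 to 9 risers and 2 to 4 genes that fell in Col-0 T/NHS (2 without NHS or T replicate 1), 3 to 5 and 2 to 3 in P+T/P, and 1 to 3 genes that fell in P+T/T (1 without T replicate 1 or P+T replicate 1 or 3). It gave 0 to 1 calls for hsfa2 at P+T, and for cdk8 between 5 and 8 at both NHS and P, between 11 and 15 at T, and 7 to 12 at P+T (7 without Col-0 P+T replicate 2 or cdk8 P+T replicate 3). The cdk8 interactions had 4 to 6 calls in T/NHS and 0 to 1 in P+T/T. The counts at 0 in Col-0 P/NHS, hsfa2 at NHS, P and T and the hsfa2 interactions stayed at 0.

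With 3 libraries a group, low-count genes, among them IAA5, IAA30, IAA32 and GH3.1, changed call with single libraries, and IAA6, IAA20 and IAA33 could not be tested.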
